A study of Homo sapiens with 21 samples.

Results

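MHC class I antigen presentation was described here through 9 genes in A375 cells, an established human metastatic melanoma line. These genes were HLA-B, HLA-C and HLA-E, B2M, TAP1, TAP2, PSMB8, PSMB9 and NLRC5. They were chosen by name for their place in the pathway and found by their Ensembl identifiers among the 58870 genes of each library. All 9 were among the 19290 genes that passed the filter on low values (at least 10 in at least 3 of the 21 libraries).

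The series held 21 messenger RNA libraries in 7 groups of 3, all from A375 cells. gSOX10 #4 and gSOX10 #2 were cells in which CRISPR/Cas9 had been directed at SOX10 with different guides, grown without inhibitor. CRT35 and CRT34 were A375 lines tolerant of, or resistant to, BRAF plus MEK inhibition. The study says that they arose in vivo after such treatment, and they were kept in medium with both inhibitors. Their Combo groups had the BRAF inhibitor PLX4720 at 1 µM with the MEK inhibitor PD0325901 at 35 nM, and their DMSO groups were the same lines labelled as without drug. How long the DMSO cells had been without drug is not given in the sources used here. A375 parental cells were untreated and unedited. Each gSOX10 group carries a single clone number in its labels and each CRT group is a single derived line, so a clone or line cannot be told apart from its condition. For the CRT lines against parental cells, past growth in an animal cannot be told apart from drug tolerance either. The gSOX10 #4 libraries are labelled A375, but their titles carry a clone number that belongs to a knockout clone of MeWo, another melanoma line, in the text describing these experiments, and this mismatch could not be settled here. The study calls the replicates of each knockout clone independent. Whether they, or those of the other groups, were separate cultures is not given in the sources used here, so the p-values measure only the spread between libraries, which may be technical.

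Class I molecules show peptides from a cell's own proteins to CD8+ T cells. Proteasomes cut the proteins, and PSMB8 and PSMB9 are catalytic subunits of the immunoproteasome, a form induced by interferon. TAP1 and TAP2 form the transporter that moves peptides into the endoplasmic reticulum, where they are loaded on a heavy chain (HLA-B, HLA-C or HLA-E) held by the light chain B2M. HLA-E presents mainly leader peptides of other class I chains and is read by NKG2A receptors on natural killer cells. NLRC5 is a transactivator that works at class I promoters together with RFX, NF-Y and CREB/ATF proteins, and interferon-gamma, acting in part through IRF1, is the best known inducer of the whole pathway. Loss of class I expression is a common route of immune escape in melanoma.

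The promoters of the genes described first are shown because the motifs in them are those through which the pathway is known to be controlled. Each is the 250 bases before the RefSeq start of the gene in GRCh38.p14, written in the direction of the gene. The capitals mark 4 motifs searched on both strands: TGACG (the core of the X2 box bound by CREB/ATF), CCAAT (bound by NF-Y), the core of the interferon-stimulated response element, ISRE (GAAA, any 2 bases, GAAA) and the kappaB consensus. GENCODE version 44 places the first start of HLA-C, B2M and TAP1 inside these windows and that of HLA-B upstream of its window.
HLA-B, chr6:31357180-31357429, minus strand: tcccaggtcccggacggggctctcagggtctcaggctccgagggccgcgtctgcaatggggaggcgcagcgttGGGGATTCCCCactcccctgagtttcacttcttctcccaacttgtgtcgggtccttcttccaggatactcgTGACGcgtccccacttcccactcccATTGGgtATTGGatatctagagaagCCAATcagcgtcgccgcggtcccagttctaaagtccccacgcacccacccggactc
HLA-C, chr6:31272093-31272342, minus strand: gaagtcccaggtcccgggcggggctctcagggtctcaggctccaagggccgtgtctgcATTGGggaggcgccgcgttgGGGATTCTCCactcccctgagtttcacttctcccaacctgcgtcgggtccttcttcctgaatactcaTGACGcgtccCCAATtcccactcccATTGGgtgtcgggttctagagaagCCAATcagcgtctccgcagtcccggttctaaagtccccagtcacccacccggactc
B2M, chr15:44711267-44711516, plus strand: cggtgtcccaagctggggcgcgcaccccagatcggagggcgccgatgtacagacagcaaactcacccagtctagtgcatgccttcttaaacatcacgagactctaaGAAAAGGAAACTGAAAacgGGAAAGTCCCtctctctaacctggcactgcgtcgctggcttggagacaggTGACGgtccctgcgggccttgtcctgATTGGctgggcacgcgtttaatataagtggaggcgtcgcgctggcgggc
TAP1, chr6:32853705-32853954, minus strand: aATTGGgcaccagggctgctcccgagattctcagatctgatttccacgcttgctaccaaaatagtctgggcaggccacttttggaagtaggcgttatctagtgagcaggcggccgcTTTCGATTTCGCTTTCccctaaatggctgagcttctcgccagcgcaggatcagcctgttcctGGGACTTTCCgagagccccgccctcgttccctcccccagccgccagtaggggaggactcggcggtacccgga

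The HLA-B and HLA-C windows were nearly the same sequence, with 226 identical bases over 254 aligned columns (89.0%). In both, TGACG stood upstream of CCAAT in the same layout, at -106 to -102 and -56 to -52 from the start in HLA-B and at -105 to -101 and -56 to -52 in HLA-C. They differed in the kappaB match, GGGGATTCCCC in HLA-B, which reads as the consensus on both strands, and GGGATTCTCC in HLA-C. Their other CCAAT matches also differed, at -81 to -77 and -74 to -70 in HLA-B. In HLA-C they were at -192 to -188, -95 to -91 and -80 to -76. The B2M and TAP1 windows each held a pair of overlapping ISRE core matches, on the plus strand at -144 to -129 in B2M and on the minus strand at -134 to -119 in TAP1. RefSeq windows were found for 7 of the 9 members. TGACG was present in 6 of these 7, CCAAT in 5, the ISRE core in 3 (B2M, TAP1, TAP2) and the kappaB consensus in 4. Over 34943 promoter windows of the same length, TGACG occurred in 21.2%, CCAAT in 32.0%, both together in 7.25%, the ISRE core in 3.02% and the kappaB consensus in 5.20%. TTCNNNGAA, the core of the gamma-activated site, occurred in 6.56% of all windows and in 2 members, TAP1 and PSMB8, in the window of their second RefSeq start. These matches describe letters only, and the window is the RefSeq sequence, not that of A375 alleles. Only the patterns given were searched, so windows without the ISRE core, as in HLA-B and HLA-C, may still hold a variant of that element.

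SOX10, the neural crest transcription factor that was edited, had a normalised read count of 456 to 517 in gSOX10 #4 and 392 to 504 in gSOX10 #2, against 10348 to 12822 in parental cells. It was listed at 0 in 10 of the 12 CRT libraries and reached 6.32 in the highest of the others, so no gSOX10 library went against its label in SOX10 level. The values were gene counts scaled for depth and carry no length correction that would allow levels of different genes to be compared. The value that 1 read is worth put the shallowest library, replicate 1 of CRT35 DMSO, at about 27.2 M reads and the deepest at about 75.5 M. CRT34 Combo replicate 3 lay apart from the other CRT34 Combo libraries in several members and is given separately where it matters. In HLA-C and TAP2 it was replicate 1 of CRT34 Combo that lay apart. Replicate 1 of gSOX10 #4 lay apart as well. Its mean standardised value over the members was -0.271, against -1.19 and -1.01 in the other gSOX10 #4 libraries. That was close to gSOX10 #2 (-0.375 to -0.287). Of the melanocyte markers, MLANA was listed at 0 in all 21 libraries and TYR never exceeded 0.957, so these pigment-cell antigens were at or near 0. PRAME, a melanoma antigen, was at 8469 or above in every library. The other markers changed with the groups: S100B fell in all 6 (log2 changes -8.91 to -5.04) and S100A1 in all but gSOX10 #4, PMEL fell in gSOX10 #4 and CRT34 DMSO (-1.12 and -1.06), MITF rose in CRT35 Combo and CRT34 Combo (1.21 and 2.28), and TYRP1 rose in CRT35 Combo, CRT34 Combo and CRT34 DMSO (2.96, 4.62 and 3.72) and fell in gSOX10 #4 (-1.63). Their part in the members' levels was not tested.

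All 9 members were expressed in every library. Group means were highest in CRT35 Combo for 7 members, in CRT34 Combo for NLRC5 and in parental cells for TAP2. Without CRT34 Combo replicate 3 the NLRC5 mean of that group was 1832, the lowest of the 4 CRT groups, and CRT35 Combo was highest. They were lowest in parental cells for 6 members, in gSOX10 #4 for HLA-B and HLA-E and in gSOX10 #2 for TAP2.

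**Figure D1:**
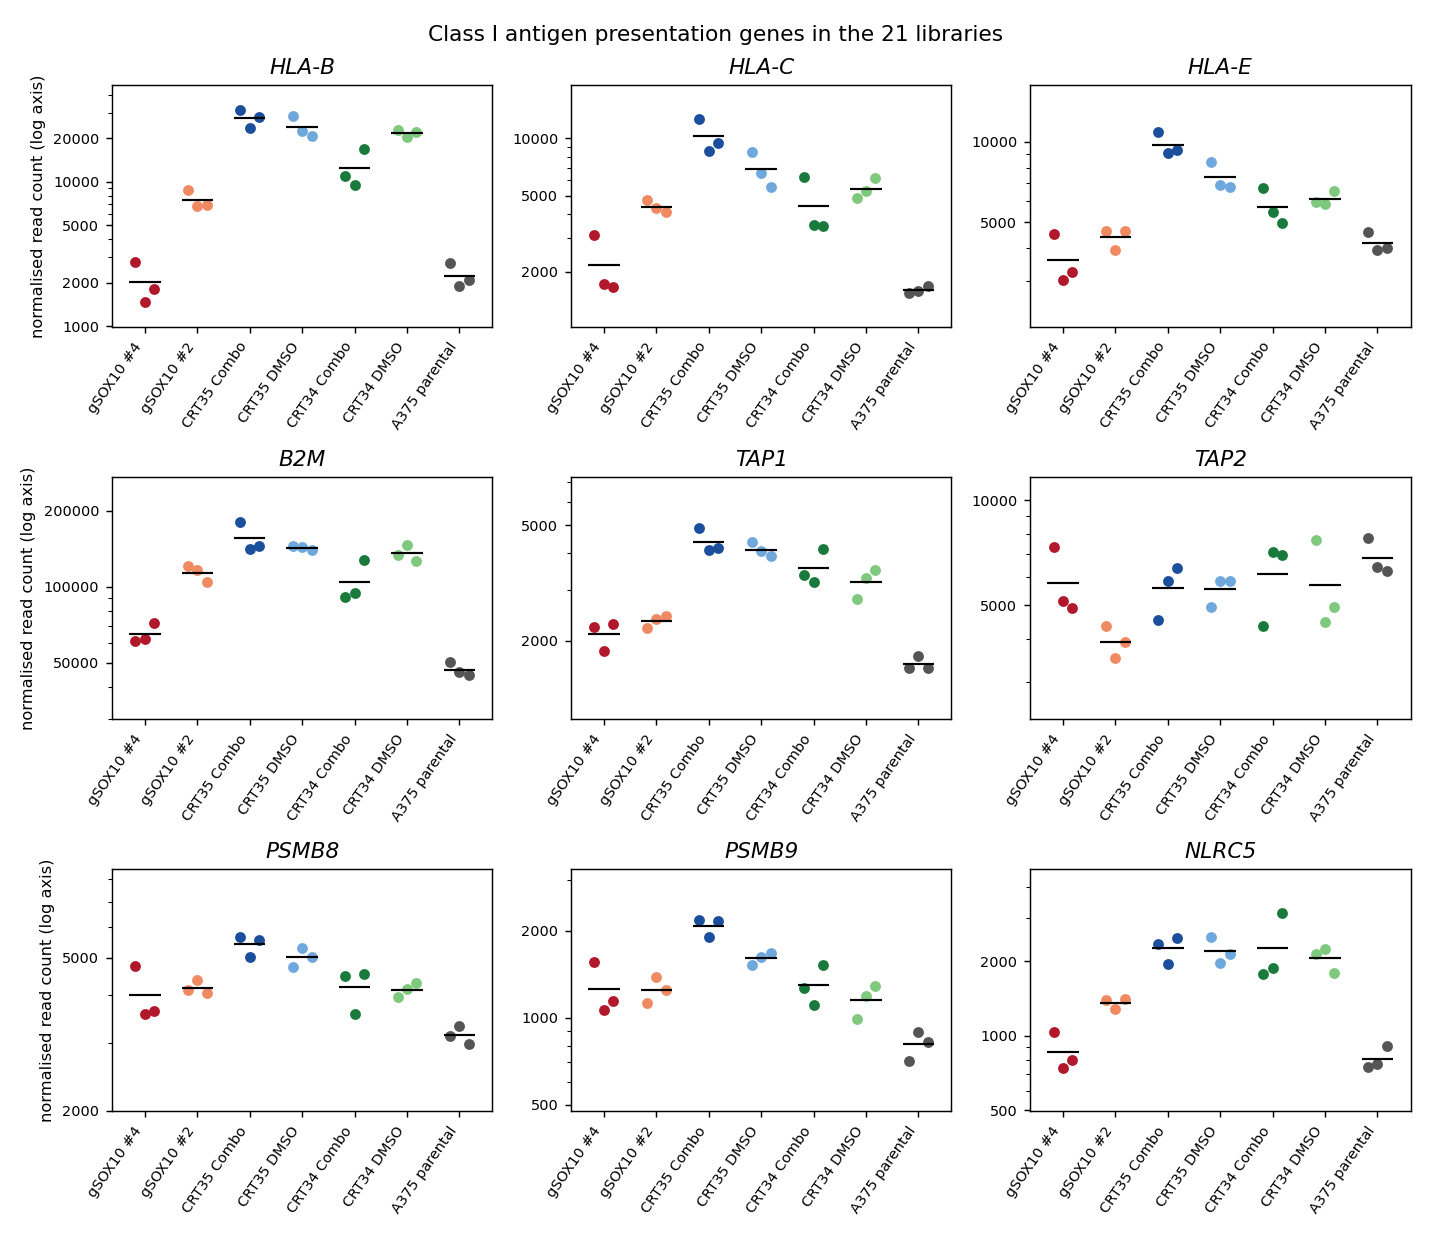
Normalised read counts (log axis, a different range in each panel) of the 9 members in the 21 libraries, each library a point and each group mean a line. HLA-B ran from 1483 to 31138 over the libraries, and TAP2 is the one panel in which parental cells had the highest mean.

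HLA-B, a classical heavy chain encoded at chr6:31353872-31367067 in GENCODE version 44, had the widest range of the members. Its normalised read counts were 2798, 1483 and 1819 in gSOX10 #4 and 8720, 6766 and 6894 in gSOX10 #2. They were 31138, 23671 and 27875 in CRT35 Combo, 28488, 22414 and 20846 in CRT35 DMSO, 10961, 9520 and 16749 in CRT34 Combo and 22879, 20526 and 22154 in CRT34 DMSO, against 2757, 1896 and 2086 in parental cells. Every gSOX10 #2 and CRT library lay above every parental library, whereas the gSOX10 #4 libraries overlapped the parental ones. From high to low, the order of means was CRT35 Combo, CRT35 DMSO, CRT34 DMSO, CRT34 Combo, gSOX10 #2, parental and gSOX10 #4, in which each of the first 3 overlapped its neighbour among them, as did the last 2. Relative to parental cells, HLA-B rose by a log2 change of 3.63 in CRT35 Combo, 3.42 in CRT35 DMSO, 2.44 in CRT34 Combo, 3.30 in CRT34 DMSO and 1.74 in gSOX10 #2, each with a standard error (SE) of 0.22. The highest adjusted p of these 5 was 6.29e-06 (limma-trend with Benjamini-Hochberg adjustment, the test used throughout). Changes are on the scale of log2(normalised read count + 1). The change in gSOX10 #4 was -0.18 (95% interval -0.64 to 0.29, adjusted p = 0.566).

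HLA-C, also a classical heavy chain, at chr6:31268749-31272130, followed the same groups with smaller changes. Its values were 3109, 1725 and 1662 in gSOX10 #4, 4723, 4310 and 4083 in gSOX10 #2, 12669, 8515 and 9445 in CRT35 Combo, 8466, 6594 and 5553 in CRT35 DMSO, 6236, 3495 and 3464 in CRT34 Combo and 4855, 5265 and 6163 in CRT34 DMSO. Parental cells had 1535, 1587 and 1689, the group with the smallest spread. As for HLA-B, every gSOX10 #2 and CRT library lay above every parental library and the gSOX10 #4 libraries overlapped them. Relative to parental cells, HLA-C rose by 2.65 in CRT35 Combo, 2.08 in CRT35 DMSO, 1.40 in CRT34 Combo, 1.75 in CRT34 DMSO and 1.45 in gSOX10 #2 (log2, SE 0.24, adjusted p at most 0.000113). In gSOX10 #4 the change was 0.37 (95% interval -0.13 to 0.87, adjusted p = 0.235), and its first replicate lay between its other replicates and gSOX10 #2. Of the windows of 100 bases along the HLA-C transcript, 0.277% occurred in another gene of GENCODE version 44, and none of those of HLA-B did. Reads of either gene can still be split by the difference between A375 alleles and the reference, which was not tested.

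HLA-E, the non-classical chain at chr6:30489509-30494194, had the smallest changes of the 3 heavy chains. Its group means were 3604 ± 796 in gSOX10 #4, 4401 ± 403 in gSOX10 #2, 9778 ± 986 in CRT35 Combo, 7365 ± 896 in CRT35 DMSO, 5703 ± 913 in CRT34 Combo and 6104 ± 382 in CRT34 DMSO, against 4182 ± 367 in parental cells (SD, n = 3 each). It rose only in CRT35 Combo among the 6 groups set against parental cells (log2 change 1.22, SE 0.15, adjusted p = 1.94e-06). In the other CRT groups every library lay above the parental ones with adjusted p between 0.000229 and 0.0215, but the changes of 0.81 in CRT35 DMSO, 0.44 in CRT34 Combo and 0.55 in CRT34 DMSO were under 2-fold. The changes of -0.23 in gSOX10 #4 (95% interval -0.55 to 0.08) and 0.07 in gSOX10 #2 (-0.24 to 0.39) did not pass the test.

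B2M, the light chain shared by all class I molecules, lies on another chromosome, at chr15:44711358-44718851. It had 60839, 62072 and 72171 in gSOX10 #4, 120466, 116297 and 104644 in gSOX10 #2, 181309, 141464 and 145366 in CRT35 Combo, 145578, 143831 and 139888 in CRT35 DMSO, 90896, 94898 and 127354 in CRT34 Combo and 133956, 145901 and 126595 in CRT34 DMSO. Parental cells had 50270, 45802 and 44817, below every other library of the series. B2M rose by 1.72 in CRT35 Combo, 1.61 in CRT35 DMSO, 1.14 in CRT34 Combo, 1.53 in CRT34 DMSO and 1.276 in gSOX10 #2 (log2, SE 0.13, adjusted p at most 1.2e-06). In gSOX10 #4 it was 0.47 above parental cells (adjusted p = 0.00812), under 2-fold. Without CRT34 Combo replicate 3, the change in CRT34 Combo was 0.99 and B2M was no longer called there.

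TAP1 and TAP2 form a single heterodimer but did not move together. TAP1, at chr6:32845209-32853816, had group means of 2113 ± 238 in gSOX10 #4, 2342 ± 120 in gSOX10 #2, 4380 ± 427 in CRT35 Combo, 4110 ± 222 in CRT35 DMSO, 3559 ± 499 in CRT34 Combo and 3188 ± 364 in CRT34 DMSO, against 1669 ± 95.8 in parental cells (SD, n = 3 each). Every library of every other group lay above the 3 parental libraries. It rose by 1.39 in CRT35 Combo, 1.30 in CRT35 DMSO and 1.08 in CRT34 Combo (log2, SE 0.13, adjusted p at most 1.57e-06), the last of which was 0.97 and not called without CRT34 Combo replicate 3. The changes of 0.93 in CRT34 DMSO, 0.49 in gSOX10 #2 and 0.34 in gSOX10 #4 had adjusted p of 1.08e-05, 0.00419 and 0.0429 but were under 2-fold. The CRT34 DMSO change became 1.02, and was called, without replicate 1 of that group.

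TAP2, at chr6:32821833-32838739, had 7319, 5120 and 4915 in gSOX10 #4, 4353, 3521 and 3906 in gSOX10 #2, 4514, 5864 and 6399 in CRT35 Combo, 4939, 5867 and 5880 in CRT35 DMSO, 4359, 7086 and 6973 in CRT34 Combo, 7705, 4470 and 4927 in CRT34 DMSO and 7774, 6440 and 6283 in parental cells. It was not called in any of the 12 comparisons. Its 6 changes against parental cells were all negative, between -0.80 in gSOX10 #2 (SE 0.22, adjusted p = 0.00584) and -0.18 in CRT34 Combo, where leaving out replicate 1 turned the sign (0.05). The TAP1 over TAP2 ratio within a library was 0.375 ± 0.0808 in gSOX10 #4, 0.602 ± 0.0855 in gSOX10 #2, 0.810 ± 0.234 in CRT35 Combo, 0.747 ± 0.118 in CRT35 DMSO, 0.605 ± 0.163 in CRT34 Combo and 0.602 ± 0.209 in CRT34 DMSO, against 0.247 ± 0.0356 in parental cells (SD, n = 3 each). As these genes differ in length, only the change of this ratio between groups can be read. TAP2 is the least certain member, since 34.7% of the 100-base windows of its transcript are also in a readthrough transcript with HLA-DOB, which had values of 178 to 1268.

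The immunoproteasome subunits were higher in every other group than in parental cells, mostly by less than 2-fold. PSMB9, at chr6:32844136-32859851, had group means of 1255 ± 266 in gSOX10 #4, 1250 ± 131 in gSOX10 #2, 2078 ± 155 in CRT35 Combo, 1606 ± 82.5 in CRT35 DMSO, 1296 ± 213 in CRT34 Combo and 1153 ± 153 in CRT34 DMSO, against 808 ± 91.1 in parental cells (SD, n = 3 each). It rose in CRT35 Combo (log2 change 1.36, SE 0.16, adjusted p = 1.36e-06), and its change of 0.99 in CRT35 DMSO was just under 2-fold (adjusted p = 6.67e-05). That change was called without parental replicate 2 or 3, without CRT35 DMSO replicate 1 or after rescaling to equal totals, with values up to 1.07. In the 4 other groups the changes were between 0.51 and 0.67, with adjusted p between 0.00225 and 0.0168, and every library was above every parental one.

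PSMB8, at chr6:32840717-32844679, had group means of 3993 ± 671 in gSOX10 #4, 4186 ± 179 in gSOX10 #2, 5418 ± 339 in CRT35 Combo, 5017 ± 287 in CRT35 DMSO, 4208 ± 543 in CRT34 Combo and 4131 ± 179 in CRT34 DMSO, against 3151 ± 173 in parental cells (SD, n = 3 each). All 18 libraries of the other groups lay above the parental ones. The changes ran from 0.33 in gSOX10 #4 (adjusted p = 0.0376) to 0.78 in CRT35 Combo (adjusted p = 2.81e-05), and none reached 2-fold. PSMB8, PSMB9 and TAP1 lie together, and in GENCODE the extent of PSMB9 overlaps those of PSMB8 and TAP1 on the opposite strand, as does the long non-coding gene PSMB8-AS1 (values 77.3 to 457). The study's methods describe a stranded library kit for these samples and the labels name a kit that does not mark strand. Whether counting used the strand is not given in the sources used here, so reads of these overlaps may be shared.

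NLRC5, at chr16:56989485-57083531, had 1039, 743 and 802 in gSOX10 #4, 1396, 1280 and 1411 in gSOX10 #2, 2346, 1946 and 2487 in CRT35 Combo, 2500, 1965 and 2140 in CRT35 DMSO, 1779, 1885 and 3135 in CRT34 Combo and 2149, 2247 and 1797 in CRT34 DMSO, against 749, 770 and 906 in parental cells. The CRT groups and gSOX10 #2 did not overlap parental cells, and the 4 CRT groups overlapped each other. It rose by 1.48 in CRT35 Combo, 1.44 in CRT35 DMSO, 1.44 in CRT34 Combo and 1.35 in CRT34 DMSO (log2, SE 0.19, adjusted p at most 1.5e-05). In gSOX10 #2 it was 0.76 above parental cells (adjusted p = 0.0033), under 2-fold, and in gSOX10 #4 the change was 0.08 (95% interval -0.31 to 0.48).

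Set against parental cells, members were called only as higher. A call required a fold change of 2 or more and an adjusted p no higher than 0.05. In CRT35 Combo 7 of the 9 were called, with TAP2 and PSMB8 the exceptions, where 20.1% of all 19290 genes were called higher and 30.3% in either direction. In CRT34 Combo 5 were called (HLA-B, HLA-C, B2M, TAP1 and NLRC5; 19.1% of all genes higher, 27.2% in either direction). In CRT35 DMSO the same 5 were called, and in CRT34 DMSO 4 were (all of these but TAP1), with 15.7% of all genes called higher in each (23.7% and 23.1% in either direction). In gSOX10 #2 the called members were HLA-B, HLA-C and B2M (3 of 9, against 15.9% of all genes higher and 23.7% in either direction). In gSOX10 #4 none of the 9 was called, where 11.8% of all genes were called higher and 20.7% in either direction. There, B2M, TAP1, PSMB8 and PSMB9 had an adjusted p between 0.00542 and 0.0429 at a smaller fold. The members' median log2 change was 1.39 in CRT35 Combo, 1.30 in CRT35 DMSO, 1.08 in CRT34 Combo, 0.93 in CRT34 DMSO, 0.63 in gSOX10 #2 and 0.33 in gSOX10 #4, while the median over all genes was between 0 and 0.0516. Without CRT34 Combo replicate 3 the count in CRT34 Combo was 3, with HLA-B, HLA-C and NLRC5 left. These 6 comparisons share the parental libraries. In bulk RNA, more cells with a gene on and more RNA per cell cannot be told apart.

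**Figure D2:**
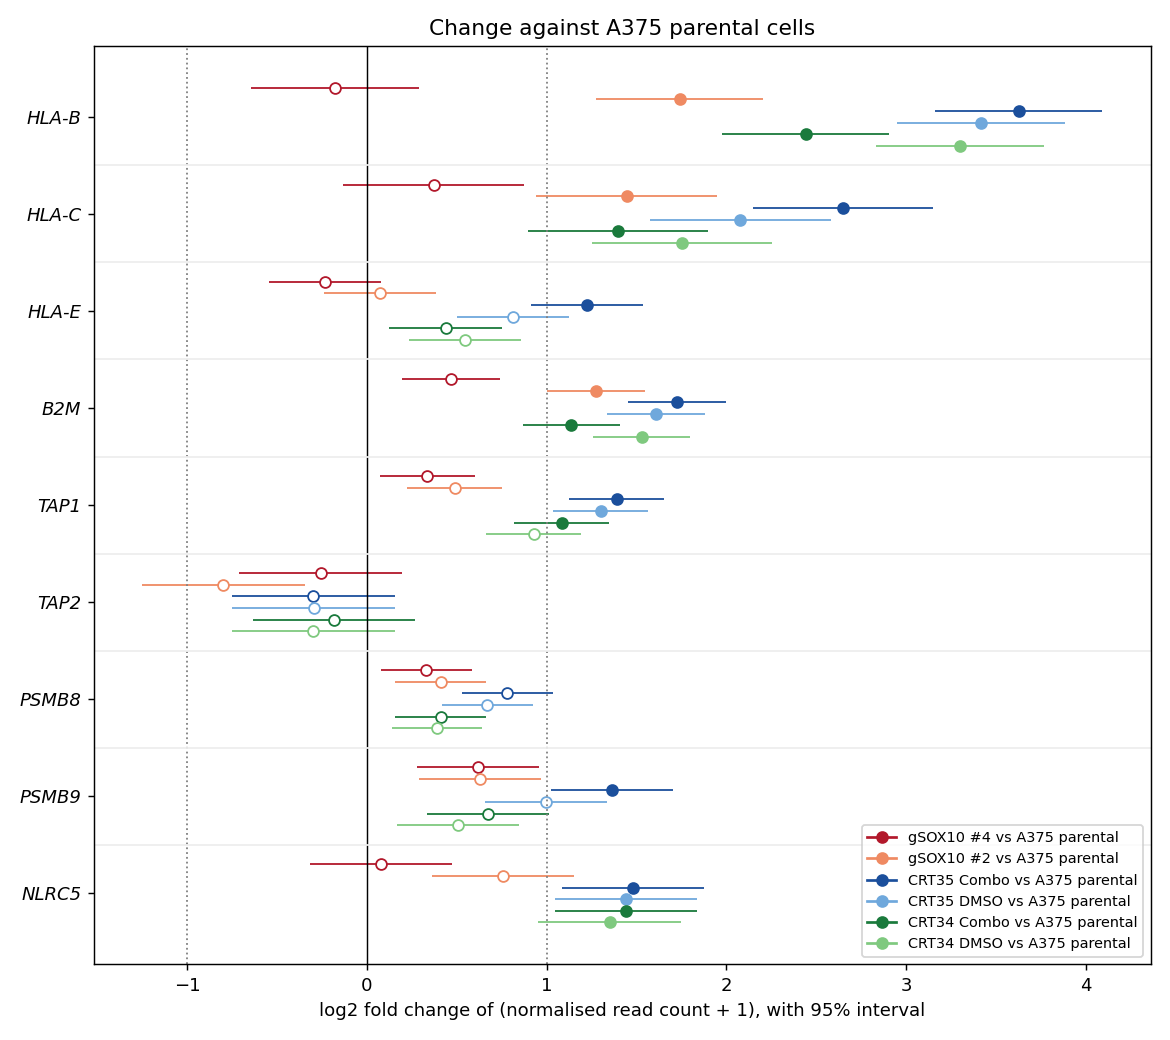
Log2 change of each member against A375 parental cells with its 95% interval, 1 colour per group. Filled points were called (at least 2-fold, dotted lines, with an adjusted p up to 0.05). HLA-B, HLA-C and B2M are filled in 5 of the 6 groups, and TAP2 lies left of 0 throughout.

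At any fold, 7 members were higher in gSOX10 #2 at an adjusted p up to 0.05 (23.7% of all genes) and TAP2 was lower (20.2% of all genes), leaving HLA-E. Likewise 8 members, all but TAP2, were higher in CRT35 Combo (28.1% of all genes), CRT35 DMSO and CRT34 DMSO (22.9% each) and CRT34 Combo (26.4%), and 4 in gSOX10 #4 (19.1%). The same 8 members lay wholly above parental cells in CRT35 Combo, CRT35 DMSO, CRT34 Combo and CRT34 DMSO, where 35%, 31.2%, 30.6% and 28.9% of all genes did. In gSOX10 #2 and gSOX10 #4, 7 and 4 members did, against 31.7% and 25.5% of all genes. TAP2 lay wholly below parental cells in gSOX10 #2 and CRT35 DMSO, as did 28.9% and 30% of all genes.

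The knockout clones differed from each other in HLA-B and HLA-C. HLA-B was lower in gSOX10 #4 than in gSOX10 #2 by a log2 change of -1.92 (SE 0.22, adjusted p = 7.29e-06), and HLA-C by -1.07 (SE 0.24, adjusted p = 0.00341). Those 2 were the members called, where 7.06% of all genes were called lower and 9.7% in either direction. The libraries of 4 members, these 2 with B2M and NLRC5, lay wholly below gSOX10 #2, against 19.1% of all genes, and those of TAP2 lay wholly above, as did 16% of all genes. The third heavy chain, HLA-E, differed by -0.31 (95% interval -0.62 to 0.01, adjusted p = 0.159). B2M was 0.81 lower on the log2 scale and NLRC5 0.68 lower (adjusted p = 0.000213 and 0.0151), under 2-fold, so that 4 members were lower at any fold (12.5% of all genes), whereas PSMB9 differed by -0.01 (95% interval -0.35 to 0.33) and PSMB8 by -0.08 (-0.33 to 0.17). Without gSOX10 #4 replicate 2 or 3 the HLA-C difference was -0.94 or -0.91 and was not called, and without replicate 1 it was -1.36. The clones carry different guides and are different clones, and the effects of guide and clone cannot be told apart.

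No member was called between drug states in either CRT line. In CRT35 Combo against CRT35 DMSO, where 1.14% of all genes were called, the changes ran from -0.003 for TAP2 to 0.57 for HLA-C (95% interval 0.07 to 1.07, adjusted p = 0.253). The 3 HLA-C libraries of CRT35 Combo lay above those of CRT35 DMSO, as did those of HLA-E and PSMB9. Over all genes, 14% were wholly higher in this comparison. In CRT34 Combo against CRT34 DMSO, 5.1% of all genes were called. HLA-B was the member nearest to a call, and the one lower in every CRT34 Combo library than in every CRT34 DMSO library, as were 9.44% of all genes (log2 change -0.86, SE 0.22, adjusted p = 0.0227, a fold of 0.552). It was the 1 member lower at any fold, where 3.8% of all genes were. Without CRT34 Combo replicate 3, whose 16749 was nearest to the DMSO libraries, the change was -1.10 with an adjusted p of 0.00267, and HLA-B was called. In the test of the difference in drug effect, which called 0.0104% of all genes, the effect on HLA-B was 1.07 higher in CRT35 than in CRT34 (SE 0.31, adjusted p = 0.395), and 1.30 without that library (adjusted p = 0.0368), which was the one member call for this difference. With each CRT library left out in turn, this difference ran from 0.90 to 1.30, with an adjusted p up to 0.839. CRT34 Combo replicate 3 was singled out by the members' own values, so the HLA-B calls made without it are not separate evidence. The change of B2M with drug was 0.12 in CRT35 (adjusted p = 0.704) and -0.39 in CRT34 (adjusted p = 0.0724), with a difference of 0.51 (adjusted p = 0.528).

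CRT35 and CRT34 differed most in HLA-B and HLA-C under drug. In CRT35 Combo, HLA-B was higher than in CRT34 Combo by 1.19 (SE 0.22, adjusted p = 0.00134) and HLA-C by 1.25 (SE 0.24, adjusted p = 0.00159), the 2 members called, where 3.17% of all genes were called higher and 6.91% in either direction. These 2 with HLA-E, B2M, PSMB9 and PSMB8 lay wholly above CRT34 Combo (6 of 9, against 13.9% of all genes). HLA-E, B2M, PSMB9 and PSMB8 were 0.79, 0.59, 0.69 and 0.37 higher with adjusted p between 0.00151 and 0.0463, under 2-fold. Between CRT35 DMSO and CRT34 DMSO none was called (8.11% of all genes), although 4 members lay wholly above (16.6% of all genes), and HLA-B differed by 0.12 (95% interval -0.35 to 0.58). At any fold, 6 members were higher in CRT35 Combo than in CRT34 Combo (6.75% of all genes) and 1, PSMB9, in CRT35 DMSO than in CRT34 DMSO (7.2%). NLRC5 did not pass the test between the lines in either state, with differences of 0.04 under drug (95% interval -0.36 to 0.43) and 0.09 without (-0.30 to 0.49).

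**Figure D3:**
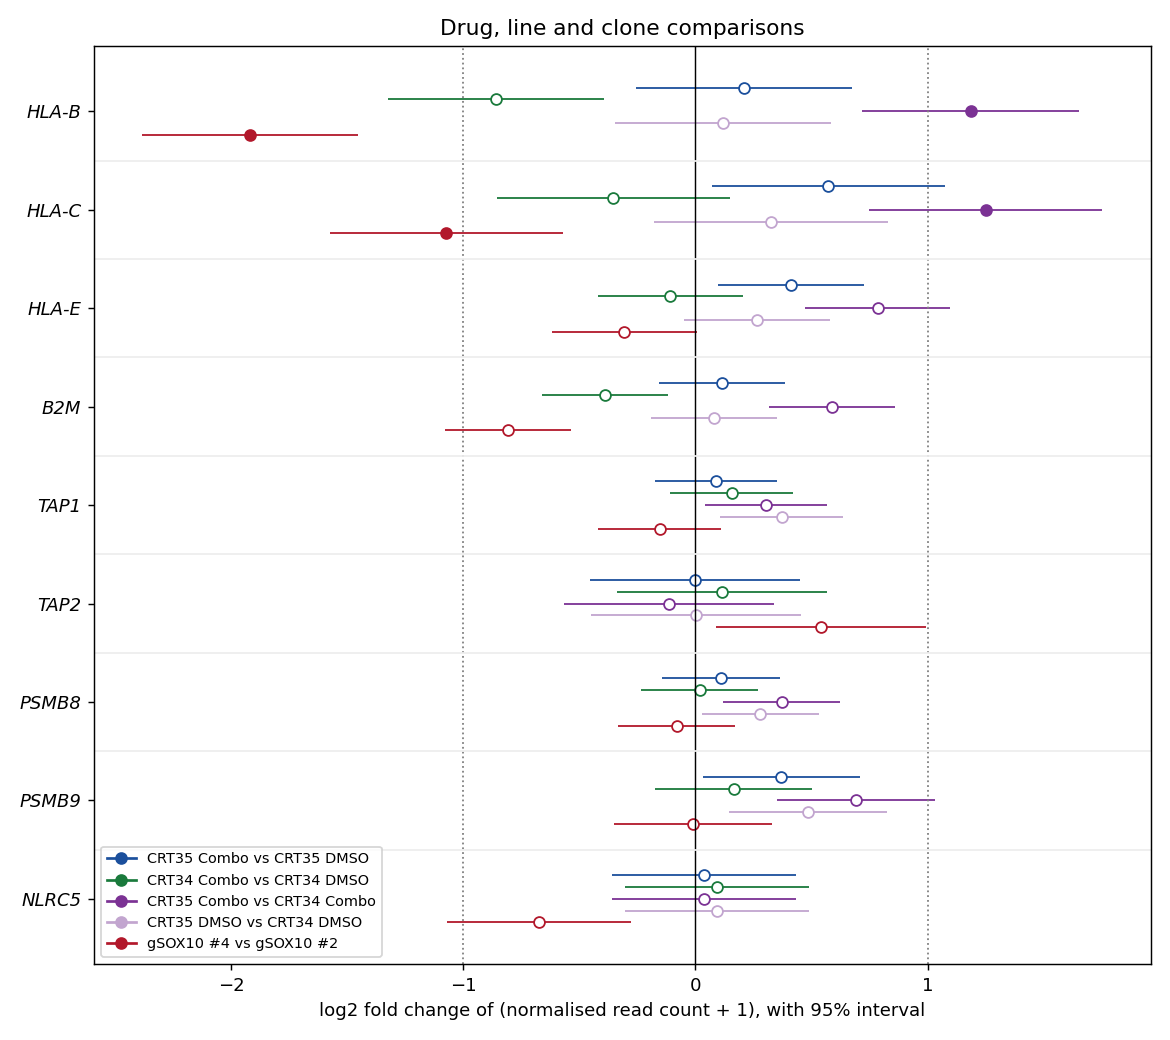
Log2 change of each member between drug states, between CRT lines and between knockout clones, with 95% intervals. Filled points were called: HLA-B and HLA-C in gSOX10 #4 against gSOX10 #2 (-1.92 and -1.07) and in CRT35 Combo against CRT34 Combo (1.19 and 1.25).

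HLA-B and HLA-C changed by unequal amounts. The ratio of HLA-B to HLA-C values within a library was 0.951 ± 0.125 in gSOX10 #4, 1.70 ± 0.139 in gSOX10 #2, 2.73 ± 0.251 in CRT35 Combo, 3.51 ± 0.215 in CRT35 DMSO, 3.11 ± 1.57 in CRT34 Combo and 4.07 ± 0.578 in CRT34 DMSO, against 1.41 ± 0.336 in parental cells (SD, n = 3 each). The CRT34 Combo libraries were 1.76, 2.72 and 4.84, so this group alone spanned the range from parental cells to CRT34 DMSO. In CRT35 the 3 Combo ratios (2.46, 2.78 and 2.95) lay below the 3 DMSO ratios (3.36, 3.40 and 3.75). When both genes were summed to 1 value, that sum kept every call of HLA-B.

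**Figure D4:**
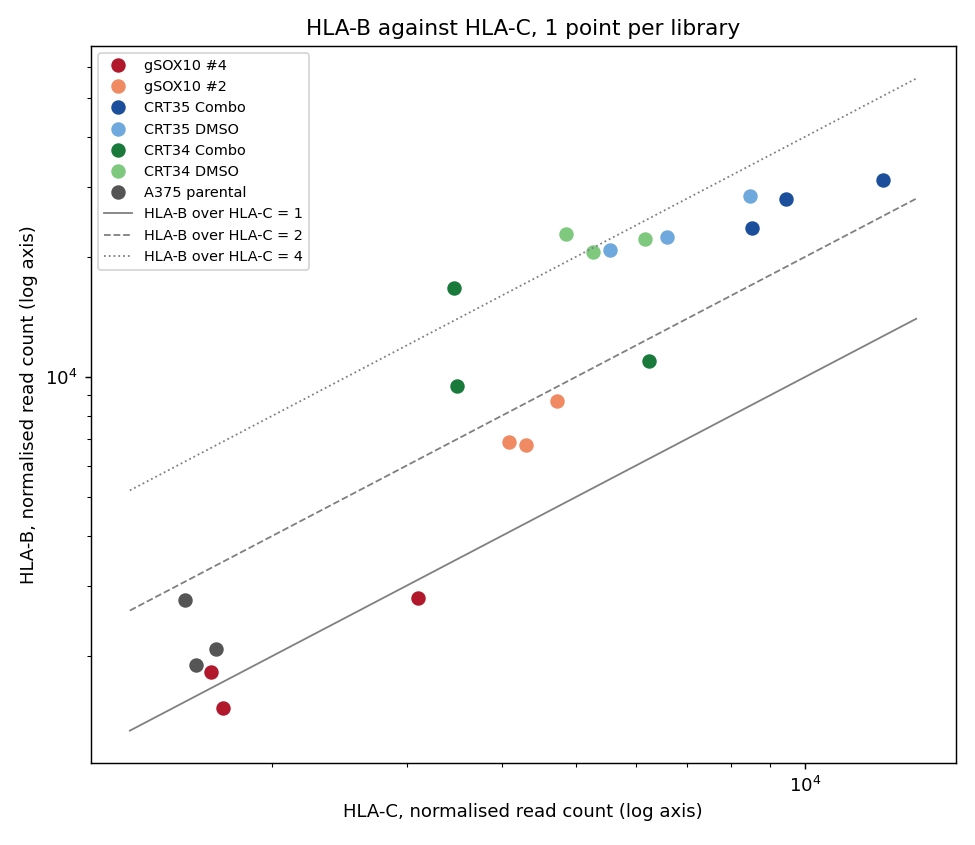
HLA-B against HLA-C in each of the 21 libraries (normalised read counts, log axes), with lines at ratios of 1, 2 and 4. The gSOX10 #4 points lie at ratios of 0.860 to 1.09 and the CRT34 DMSO points at 3.59 to 4.71.

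Across the 21 libraries, 8 members followed one another and TAP2 did not. Pearson's r of log values was between 0.668 and 0.957 over the 28 pairs without TAP2, highest for PSMB8 with PSMB9, which lie side by side, and between -0.321 and 0.011 over the 8 pairs with it. HLA-B and NLRC5 had r = 0.947, HLA-B and B2M 0.933. The libraries fall into groups that differ in most members, so these r describe groups as much as libraries and carry no p. The protein-coding gene outside the set with the profile most like HLA-B was HLA-F (r = 0.976), and for TAP1 it was IDO1 (0.973), a tryptophan-degrading enzyme induced by interferon-gamma. Those for HLA-E, B2M and NLRC5 were USB1 (0.968), RNASE4 (0.955) and KCNMB2 (0.961). TAP2 was most like EIF3B (0.914), a translation initiation factor subunit. For PSMB8 and PSMB9 these were KIAA0930 (0.92) and DHRS4L2 (0.936), each below the r of 0.957 that the 2 had with each other. The genes most like the mean standardised profile of all 9 were ANXA6 (0.966), CCN4 (0.961), SOCS1 (0.95), CNTNAP1 (0.95) and LPAR1 (0.949).

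Other genes of the pathway were called in part. Of 7 peptide loading and trimming genes, TAPBP and TAPBPL, the tapasin chaperone and its relative, were the ones called against parental cells. Over all genes, 11.8% to 20.1% were called higher in those comparisons and 20.7% to 30.3% in either direction. TAPBP rose in CRT35 Combo (1.67), CRT35 DMSO (1.21), CRT34 DMSO (1.08) and gSOX10 #2 (1.16, log2, SE 0.18, adjusted p at most 9.51e-05). TAPBPL rose in these 4 and in gSOX10 #4 (log2 changes 1.04 to 1.64, adjusted p at most 0.00176), so it was higher in both knockout clones. CALR, CANX, PDIA3, ERAP1 and ERAP2 were not called against parental cells. None of 4 other immunoproteasome parts (PSMB10, PSME1, PSME2, POMP) was called in those comparisons, and PSMB10, the third catalytic subunit, changed by -0.30 to 0.57. Of the constitutive subunits, PSMB6, which PSMB9 replaces, changed by between -0.71 and 0.47 and was not called against parental cells, but it was higher in CRT35 than in CRT34 (1.01 between the Combo groups and 1.03 between the DMSO groups, adjusted p = 0.000115 and 9.24e-05). The PSMB9 over PSMB6 ratio was 0.157 ± 0.00526 in gSOX10 #4, 0.125 ± 0.00237 in gSOX10 #2, 0.136 ± 0.0205 in CRT35 Combo, 0.0934 ± 0.00747 in CRT35 DMSO, 0.170 ± 0.0171 in CRT34 Combo and 0.136 ± 0.00831 in CRT34 DMSO, against 0.0653 ± 0.00859 in parental cells (SD, n = 3 each).

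HLA-F, a non-classical class I gene, had 155, 58.4 and 116 in gSOX10 #4, 420, 310 and 282 in gSOX10 #2, 1398, 978 and 1102 in CRT35 Combo, 1035, 621 and 678 in CRT35 DMSO, 783, 460 and 721 in CRT34 Combo and 648, 645 and 954 in CRT34 DMSO, against 117, 72.1 and 83.3 in parental cells. It was called higher in the same 5 groups as HLA-B. HLA-G never exceeded 4.74. MR1, which presents microbial vitamin B metabolites, rose in all 6 groups, by 1.54 in gSOX10 #4, 2.94 in gSOX10 #2 and 2.30 to 3.67 in the CRT groups (SE 0.24). ULBP2, a ligand of the activating receptor NKG2D, also rose in all 6 (1.25 to 1.84). FCGRT, the class I-like neonatal Fc receptor, was at 619 to 2846 in the CRT groups and 0 to 6.75 in the gSOX10 groups, against 0.627 to 9.38 in parental cells. Of the 9 tested genes of this list, 5 were called higher in CRT35 Combo (20.1% of all genes), CRT35 DMSO (15.7%), CRT34 Combo (19.1%) and gSOX10 #2 (15.9%). In CRT34 DMSO 4 were (15.7%) and in gSOX10 #4 2 (11.8%). In gSOX10 #2 1 was lower and in gSOX10 #4 2, where 23.7% and 20.7% of all genes were called in either direction, shares that include the genes called higher. FCGRT was among those 2 in gSOX10 #4. Its values were under 10 in all gSOX10 and parental libraries, so it passed the filter through the CRT groups alone and that call lies near 0.

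Of 14 transcription factors known at class I promoters, 3 were called higher in CRT35 DMSO (15.7% of all genes). In CRT35 Combo (20.1%) and CRT34 DMSO (15.7%) 2 were. None was called higher in CRT34 Combo (19.1%), gSOX10 #2 (15.9%) or gSOX10 #4 (11.8%). In each knockout clone 1 was called lower, where 23.7% (gSOX10 #2) and 20.7% (gSOX10 #4) of all genes were called in either direction, shares that include the genes called higher. IRF1 rose in both CRT35 groups (1.23 in each, SE 0.22, adjusted p = 0.000161 in CRT35 Combo and 0.000211 in CRT35 DMSO). It was 0.24 and 0.36 above parental cells in CRT34 Combo and CRT34 DMSO and 0.67 and 0.38 in gSOX10 #4 and gSOX10 #2, which were not called. RELB rose in CRT35 Combo, CRT35 DMSO and CRT34 DMSO (1.15 to 1.42, SE 0.41), NFKB2 in CRT35 DMSO and CRT34 DMSO (1.15 and 1.26), and NFKB1 fell in gSOX10 #2 (-1.40). RFX5, CREB1 and the NF-Y subunits, partners of NLRC5, were not called in any comparison, whereas RFXAP, another RFX subunit, fell in gSOX10 #4 (-1.04, adjusted p = 2.84e-05). The NF-Y subunit NFYA was lower in all 6 groups at under 2-fold (-0.89 to -0.57, adjusted p at most 0.00369). IRF9, a DNA-binding factor of the type I interferon response, rose in all 6 groups (1.77 to 2.64, SE 0.27), and SOCS1, a feedback inhibitor of that signaling, in 5, all but gSOX10 #4. IFNGR1 was called higher in CRT35 Combo, CRT34 Combo and CRT34 DMSO (1.07, 1.01 and 1.62), and its 1.00 in CRT35 DMSO lay at the fold limit.

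RNA of most of the 6 interferon genes looked at was at or near 0. IFNG and IFNK were listed at 0 in all 21 libraries, and IFNA1, IFNB1 and IFNL1 never exceeded 3.04. IFNE was the exception, at 145 to 252 in gSOX10 #4, 110 to 214 in gSOX10 #2, 52.3 to 126 in CRT35 Combo, 172 to 234 in CRT35 DMSO, 35.8 to 136 in CRT34 Combo and 128 to 272 in CRT34 DMSO, against 14.4 to 38.4 in parental cells, and it was called higher in all 6 groups. Of 16 interferon-stimulated genes, 13 rose in CRT35 Combo (20.1% of all genes), 12 in CRT35 DMSO (15.7%), 11 in CRT34 Combo (19.1%), 8 in CRT34 DMSO (15.7%), 8 in gSOX10 #2 (15.9%) and 7 in gSOX10 #4 (11.8%), and GBP2 fell in gSOX10 #4 (-2.61). BST2, the virion tether, reached 6239 to 10450 in CRT35 Combo and 440 to 855 in gSOX10 #4, against 80.5 to 116 in parental cells. IFI44L rose by 2.98 in gSOX10 #4 and 1.24 in gSOX10 #2 (SE 0.33 each), and between the clones IFI44L and BST2 were 1.73 and 1.42 higher in gSOX10 #4 (adjusted p = 0.000922 and 0.000781), the opposite order to HLA-B. GBP2 and OAS1 were lower in gSOX10 #4 than in gSOX10 #2, as HLA-B was (-2.46 and -1.27, adjusted p = 0.000489 and 0.00807), and the 12 others were not called between the clones. OAS2, a sensor enzyme of double-stranded RNA, rose in all 6 groups (1.49 to 3.03), and IFIT2 in 5, all but CRT34 DMSO.

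**Figure D5:**
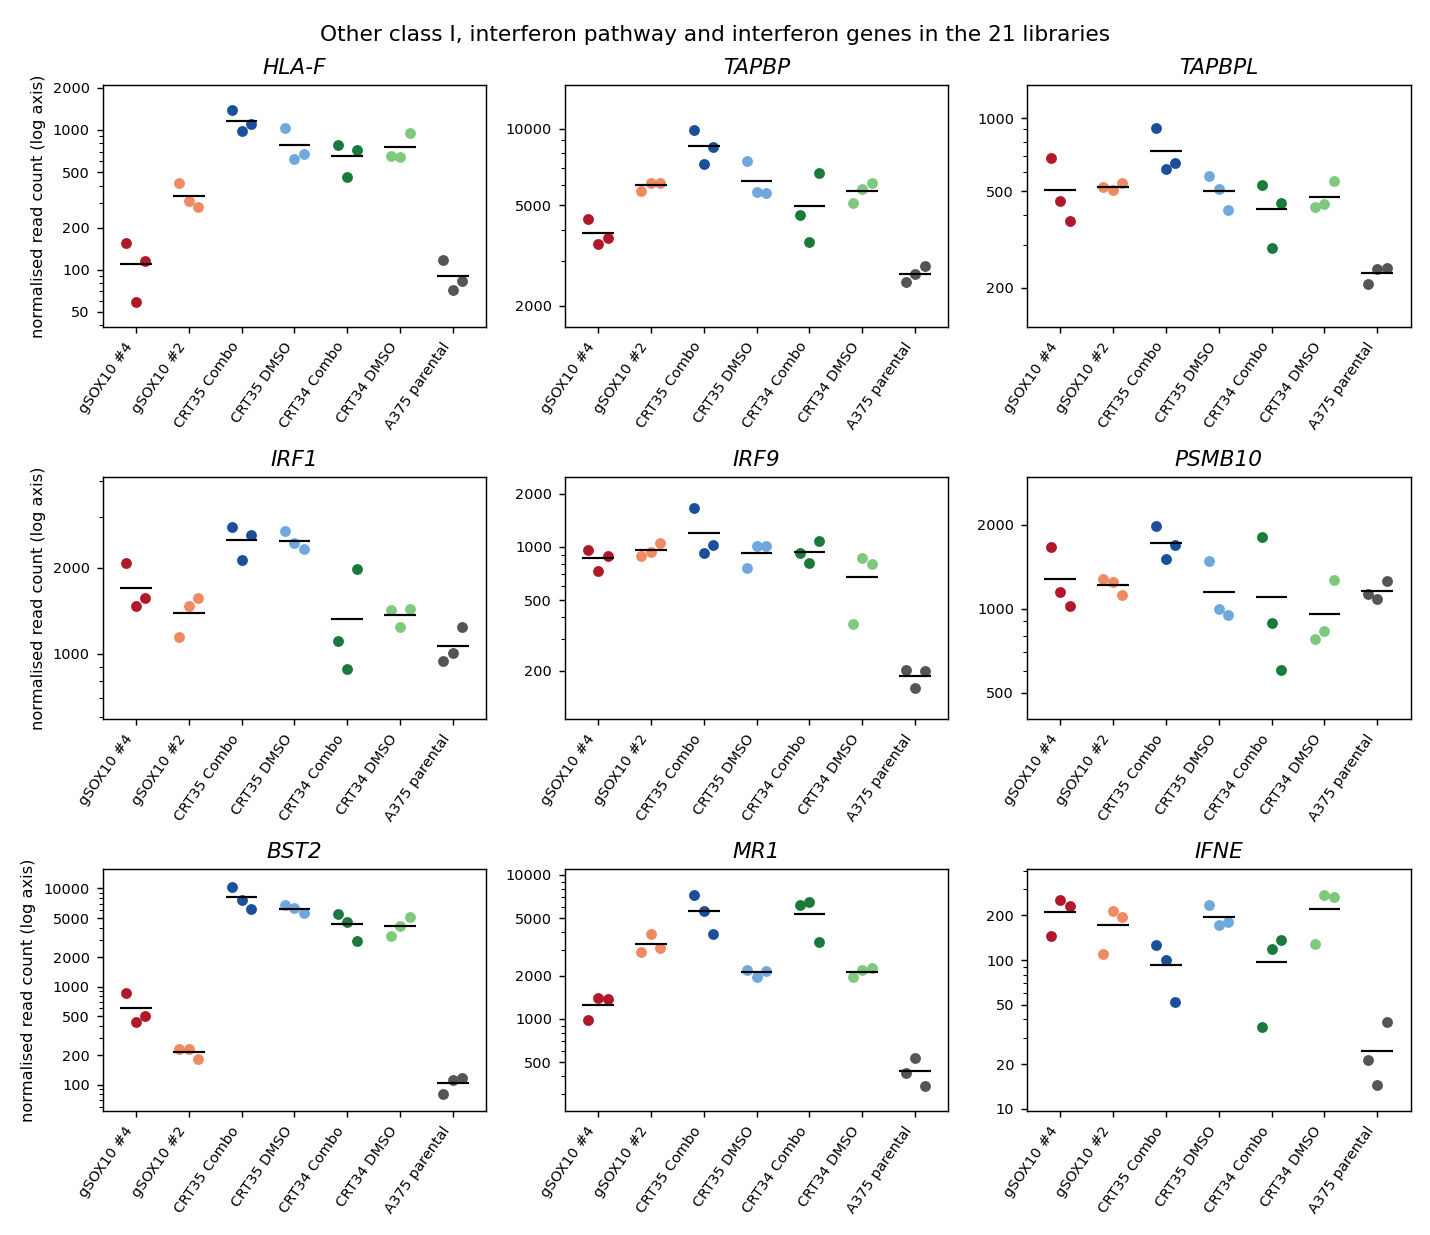
Normalised read counts (log axis, a different range in each panel) of HLA-F, TAPBP, TAPBPL, IRF1, IRF9, PSMB10, BST2, MR1 and IFNE in the 21 libraries, each library a point and each group mean a line. BST2 in gSOX10 #4 (440 to 855) lay above gSOX10 #2 (184 to 234) and both above parental cells (80.5 to 116), while HLA-F in gSOX10 #4 overlapped parental cells.

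Leukocytes also carry class I molecules. Of their markers, CD3E, MS4A1 and NKG7 never exceeded 3.24 and PTPRC never exceeded 44.5. The 10 leukocyte markers summed to 38.9 to 58.8 in gSOX10 #4, 60.5 to 75.7 in gSOX10 #2, 99.7 to 137 in CRT35 Combo, 41.5 to 91.9 in CRT35 DMSO, 1046 to 1100 in CRT34 Combo and 610 to 814 in CRT34 DMSO, against 333 to 490 in parental cells, there mostly LYZ. Their part in the members' levels was not tested. The CRT34 sums were mostly CD4 (580 to 1022), and CD4 never exceeded 73.3 elsewhere. Of the 6 leukocyte markers tested, 4 (CD4, CD8A, ITGAM and PTPRC) were called higher in CRT35 Combo (20.1% of all genes) and CRT34 Combo (19.1%). In CRT35 DMSO 3 were (15.7%), in CRT34 DMSO 1 (15.7%), in gSOX10 #4 1 (11.8%) and in gSOX10 #2 none (15.9%). LYZ was lower in all 6 groups. PTPRC, which all leukocytes carry, was at 12.8 to 19.6 in CRT35 Combo, 1.92 to 6.29 in CRT35 DMSO, 4.55 to 44.5 in CRT34 Combo and 0 to 2.55 in CRT34 DMSO, against 0 to 0.853 in parental cells. The 5 endothelial markers summed to 1943 to 7672 in the CRT groups, mostly TEK, and 130 to 239 in the gSOX10 groups. Parental cells had 168 to 220. These markers did not move together. PECAM1 was called higher in all 6 groups (log2 changes 2.89 to 4.80) and KDR lower in all 6 (-4.107 to -1.965). TEK was called higher in the CRT groups only. CDH5 was higher in both CRT34 groups and lower in gSOX10 #4, and VWF higher in gSOX10 #2 and lower in CRT34 DMSO. None of the 9 housekeeping genes was called against parental cells, where 20.7% to 30.3% of all genes were. Their median change was -0.39 to -0.10. Some of them did change at under 2-fold, in both directions. TBP changed by -0.83 in gSOX10 #2 (adjusted p = 0.000317) and ACTB by 0.54 in CRT35 Combo (adjusted p = 0.0115).

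The members on chromosome 6 lie between HLA-E and PSMB9, at chr6:30489509-32859851, a stretch with many other genes. Of the 99 other tested genes in that stretch, 12.1% were called higher and 18.2% lower in CRT35 Combo. Over all genes, 20.1% were called higher there and 30.3% in either direction. In gSOX10 #2, 14.1% were higher and 17.2% lower, against 15.9% of all genes higher and 23.7% in either direction. In the remaining groups 9.09% to 11.1% were higher and 13.1% to 19.2% lower. All genes there had 11.8% to 19.1% higher and 20.7% to 27.2% in either direction. The share of all genes called lower is the share in either direction less the share higher. In each of the 6 groups these neighbours were called lower more often than all genes, and higher less often. Over the 6 groups set against parental cells, the median log2 change of these neighbours was between -0.32 and -0.06. Of the 14 other tested genes within 500 kb of B2M, 42.9% were called higher in CRT35 Combo (20.1% of all genes). In the other 5 groups 7.14% to 21.4% were, against 11.8% to 19.1% of all genes. Of the 19 within 500 kb of NLRC5, 31.6% were called higher in CRT35 DMSO and CRT34 DMSO (15.7% of all genes in each). In the other 4 groups 0% to 21.1% were, against 11.8% to 20.1% of all genes.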

How the data were processed

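The authors sequenced mRNA of 21 A375 libraries. Per the labels, STAR 2.6.1a, RSEM, Picard and DESeq2 were used with GRCh38. The deposited values are a signal, RSEM estimates that the authors divided by size factors, a reading that rests on the values. Steps of single reads were not whole multiples, so whole reads were not recovered and no count model was used. Symbols and positions came from GENCODE version 44 (58472 of 58870 identifiers matched), promoters from RefSeq (GRCh38.p14).

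Of the 58870 genes, 19290 that reached 10 in 3 or more libraries were tested with limma-trend (limma 3.58.1, R 4.3.3) on log2(value + 1), with 1 mean per group, all 21 libraries and no covariate. Benjamini-Hochberg adjustment covered all tested genes within each of 12 comparisons, and calls needed an adjusted p of 0.05 or lower and at least 2-fold. The script was checked on simulated data.

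All members were named. Of each further list, IRF1, PSMB10, TAPBP, HLA-F and HLA-G and up to 4 genes called in most comparisons were named, others being chosen after their values were seen. The members and lists were chosen with earlier results of these data known. 1 profile match of HLA-C and 1 gene each of 2 lists are not reported here. Alternatives were a pseudocount of 10, no filter, only the groups compared, rescaled totals, quantile normalization, a replicate block, leaving out libraries, no fold limit and a summed HLA-B and HLA-C row.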

Additional observations from a re-analysis of the deposited data

Results flagged for a closer look

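The effect on HLA-B and HLA-C differed between the knockout clones, by the test of the difference itself. The log2 change of gSOX10 #4 against gSOX10 #2 was -1.92 for HLA-B and -1.07 for HLA-C. The same genes differed between the CRT lines under drug, with CRT35 Combo above CRT34 Combo by 1.19 for HLA-B and 1.25 for HLA-C. Without gSOX10 #4 replicate 2 or 3 the HLA-C difference between the clones was -0.94 or -0.91 and was not called. Groups of 3 were too small for the gap test of a single outlying library, so libraries were only left out in turn.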

How the results depend on the processing

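No called member changed direction under any alternative run, and the counts of called members were the same without a filter, with a pseudocount of 10, in fits of only the groups compared, with quantile normalization and with totals rescaled to be equal, except that rescaling gave 6 in CRT35 DMSO against parental cells, adding PSMB9. Some uncalled changes near 0 turned sign. TAP2 in CRT35 Combo against CRT35 DMSO was 0.02836 after rescaling and 0.03483 after quantile normalization, PSMB9 in gSOX10 #4 against gSOX10 #2 was 0.05687 after quantile normalization, and HLA-B in gSOX10 #4 against parental cells was 0.07513 when summed with HLA-C. The cause was not tested.

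Without both libraries doubted (CRT34 Combo replicate 3 and CRT35 DMSO replicate 1), 3 members were called in CRT34 Combo against parental cells, 1 in CRT34 Combo against CRT34 DMSO, 1 for the difference in drug effect (HLA-B in both) and 6 in CRT35 DMSO against parental cells. PSMB8 and NLRC5 were then -0.04129 and -0.1661 in CRT34 Combo against CRT34 DMSO, HLA-B and NLRC5 -0.01425 and -0.003255 in CRT35 DMSO against CRT34 DMSO, and TAP1 and NLRC5 0.08511 and 0.2986 for the difference in drug effect. As CRT34 Combo replicate 3 was doubted for its values of the members, the HLA-B calls without it are not separate evidence. With no fold limit, 8 members passed in gSOX10 #2 (7 higher and TAP2 lower), CRT35 DMSO, CRT34 Combo and CRT34 DMSO (all 8 higher) and 4 in gSOX10 #4 (higher) against parental cells. In gSOX10 #4 against gSOX10 #2, 4 passed as lower (12.5% of all genes), in CRT35 Combo against CRT34 Combo 6 as higher (6.75%), in CRT35 DMSO against CRT34 DMSO 1 as higher (7.2%) and in CRT34 Combo against CRT34 DMSO 1 as lower (3.8%).

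Leaving out 1 library at a time, the count of called members against parental cells was 3 to 5 in CRT34 Combo, 4 to 5 in CRT34 DMSO and 5 to 6 in CRT35 DMSO. It was 1 to 2 between the clones, 0 to 1 in CRT34 Combo against CRT34 DMSO and 0 to 1 for the difference in drug effect. The ranges of changes that crossed 0 were, against parental cells, -0.4327 to 0.02476 for HLA-B and -0.0619 to 0.1798 for NLRC5 in gSOX10 #4 and -0.3029 to 0.04763 for TAP2 in CRT34 Combo. Between the clones PSMB9 ran from -0.1762 to 0.09918. In CRT34 Combo against CRT34 DMSO, TAP2 ran from -0.03967 to 0.353, PSMB8 from -0.04129 to 0.1309 and NLRC5 from -0.1661 to 0.2423. In CRT35 Combo against CRT35 DMSO, TAP2 ran from -0.1078 to 0.1439 and NLRC5 from -0.04125 to 0.141. Between the lines under drug, TAP2 ran from -0.3454 to 0.03123 and NLRC5 from -0.1131 to 0.2954. Without drug, HLA-B ran from -0.01425 to 0.211, TAP2 from -0.1524 to 0.2403 and NLRC5 from -0.004736 to 0.1705. For the difference in drug effect, TAP1 ran from -0.1468 to 0.04296, TAP2 from -0.3559 to 0.0368, PSMB8 from -0.02014 to 0.152 and NLRC5 from -0.2051 to 0.2033.

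The replicate block, fitted over the 6 groups with numbered replicates, left 0, 7, 5, 5 and 4 members called in gSOX10 #4, CRT35 Combo, CRT35 DMSO, CRT34 Combo and CRT34 DMSO against parental cells, 2 in CRT35 Combo against CRT34 Combo and 0 in the other 4 comparisons it covers, so it changed no count. The numbers were not used as pairs in the main fit. In 1 of 15 pairs of groups all same-numbered correlations of deviations exceeded 0.1. That pair was CRT35 Combo with CRT34 Combo (0.218, 0.253 and 0.207), and this check cannot exclude a shared culture or batch. Since whole reads were not recovered, no counting interval was given, and the shallowest library enters with the same weight as the deepest.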
